A study of Mus musculus with 14 samples.

Results

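Rab GTPases are small membrane-bound switches that mark the compartments of a cell and direct the vesicles that move between them. The genes described here are all 59 whose symbol is Rab followed by a number and, for some, a letter, out of 35735 genes in the deposited expression table. RNA was sequenced from microglia, the resident macrophages of neural tissue, sorted from mouse retina as 14 libraries of 1 retina each. All mice were 12 weeks old. Their genotype was APOE E3/E3 in 7 libraries and APOE E4/E4 in the other 7. Eyes of each genotype were injected with microbeads or sham-injected; the beads model glaucoma by blocking the outflow of fluid from the eye. There were 4 sham and 3 microbead libraries of each genotype, called APOE3 and APOE4 here. The sort kept Fcrls+ CD11b+ Ly6c- cells, a gate meant to leave out recruited myeloid cells, and gave 100 to 600 cells per retina. The promoter or origin of the APOE alleles is not given in the sources used here. The labels do not say whether the retinas came from separate animals, so p-values measure the spread between these samples, which may be technical.

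A Rab protein cycles between an inactive form bound to GDP and an active form bound to GTP. Exchange factors (GEFs) load GTP, GTPase-activating proteins (GAPs) end the signal, and the active Rab recruits effectors such as tethers and motor adaptors. In macrophages and microglia this system carries ingested material from early endosomes and phagosomes to lysosomes, returns receptors to the surface, and moves newly made proteins from the endoplasmic reticulum through the Golgi. The 59 genes were arranged by the compartment each is best known for: 20 in early and recycling endosomes, 15 in late endosomes, lysosomes, phagosomes and autophagy, 11 in the endoplasmic reticulum and Golgi, 9 in regulated secretion and 4 in the cilium or elsewhere.

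Libraries held 451173 to 727439 estimated reads on genes, of which 37.3% to 63.2% fell on 8 predicted genes such as Gm10800. The Rab genes together received 630 to 1351 reads per library, so counting error is large for most of them. All 10 microglial markers examined were detected in every group, with a summed level of 15443 ± 1965 CPM (reads per library scaled with TMM normalisation, mean ± SD) in APOE3 sham, 14068 ± 1162 in APOE4 sham, 8966 ± 2433 in APOE3 microbead and 14504 ± 1132 in APOE4 microbead. In bulk libraries such as these, fewer cells of a type and less RNA per cell cannot be told apart.

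Of the 59 Rab genes, 30 had enough reads to be tested, and these carried 92.7% of the summed Rab level in TPM (a level scaled for transcript length and library depth). They were 13 of 20 genes of early and recycling endosomes, 7 of 15 of late endosomes and lysosomes, 7 of 11 of the endoplasmic reticulum and Golgi, 2 of 9 of regulated secretion and 1 of 4 of the last set. Among the other 29, 16 had under 20 reads over all 14 libraries and Rab40b had none, while the highest, Rab39, had 107. Both genes are named after their values were seen. Rab38, which serves lysosome-related organelles beside Rab32, had 2 reads in all, 1 in APOE4 sham and 1 in APOE4 microbead.

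The 10 Rab genes highest in TPM held 74.8% of the summed Rab level. Rab34, known from ciliary membrane assembly and lysosome positioning, was listed highest at 127.8 ± 42.5 TPM (SD, n = 14). This value came almost wholly from 1 short transcript, Rab34-207, which is 352 bases long, is annotated as a retained intron and took 94.9% of the gene's reads. Counting protein-coding transcripts alone, Rab34 stood at 1.52 ± 1.04 TPM and ranked 28 of the 59 rather than 1. On that measure Rab11a, which recycles receptors to the surface, led at 29.1 ± 16.1 TPM. Short transcripts raised this value too. Rab11a-208, with 69.1% of the gene's reads, gave 12.4 TPM, while Rab11a-206 and Rab11a-207, of 462 and 508 bases, gave 8.34 and 6.46 TPM. In CPM Rab11a ranked 7 of the 59. Next by protein-coding transcripts came Rab7, the switch of late endosomes and lysosomes, at 17.7 ± 8.55 TPM. Rab14, which acts between early endosomes, phagosomes and the Golgi, stood at 16.2 ± 7.84. Rab1a, which governs transport from the endoplasmic reticulum to the Golgi, stood at 12.9 ± 7.66, and its close relative Rab1b at 8.68 ± 3.61. The SDs of these neighbours overlap, so their order is a description.

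**Figure D1:**
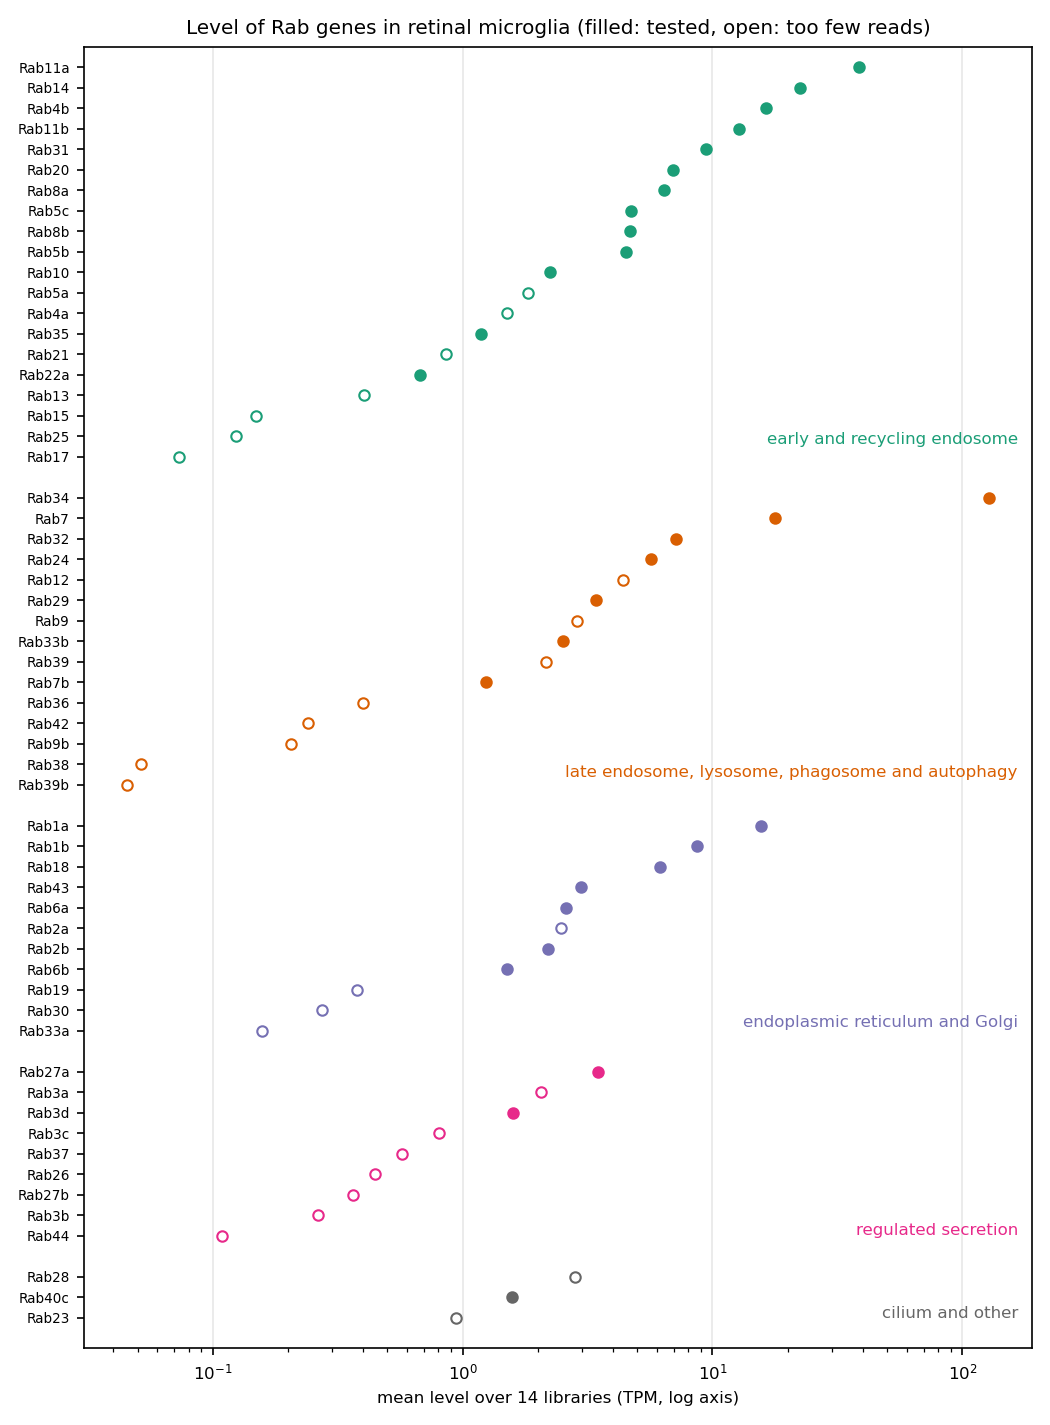
Mean level of each Rab gene over the 14 libraries in TPM on a log axis, grouped by compartment, for the 58 genes with reads. Filled circles mark the 30 genes tested and open circles those with too few reads. Rab34 lies farthest right, at 127.8 TPM, of which 1.52 came from protein-coding transcripts.

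Group means of the abundant Rab14 and Rab1a differed by less than the largest SD within a group, though some groups had a much smaller SD. Rab14 stood at 123 ± 14.2 CPM in APOE3 sham, 114 ± 26.4 in APOE4 sham, 118 ± 28.9 in APOE3 microbead and 129 ± 1.69 in APOE4 microbead. Rab1a stood at 69.4 ± 5.79, 71.1 ± 3.19, 63.6 ± 15.3 and 64.3 ± 7.24 CPM in the same order. The levels of all 59 genes summed to 1272 ± 58.3 CPM in APOE3 sham, 1301 ± 77.4 in APOE4 sham, 1379 ± 154 in APOE3 microbead and 1266 ± 63.2 in APOE4 microbead. The group ranges of this sum overlap.

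In APOE3 microglia, microbeads changed 3 of the 30 Rab genes tested (10%) at an adjusted p under 0.05 in the edgeR quasi-likelihood test. Over all 7605 genes tested 5.15% were called, 3.54% higher and 1.62% lower. Rab32 and Rab7b rose, and Rab6b fell. The median log2 fold change of the 30 was 0.20, against -0.02 over all genes, with 17 above and 13 below 0. That median was 0.19 in DESeq2 and 0.17 with library totals. It was -0.003 without APOE3 microbead 1, over 35 Rab genes, and 0.03 without APOE3 microbead 2, over 34. Without both libraries it was -0.17 over 36, and on the deposited TPM -0.02 over 41. The lean above 0 was thus not held in every run, and the genes tested differ between runs. At an unadjusted p under 0.05 there were 6 Rab genes (20%), against 14.7% of all genes.

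Rab32 is a Rab of phagosomes and lysosome-related organelles that is part of macrophage defence against ingested bacteria and is a known partner of the Parkinson's disease kinase LRRK2. The gene (ENSMUSG00000019832.5) lies on the minus strand at chr10:10545002-10558265 of GRCm38. Its level in APOE3 sham was 13.7, 10.5, 28.5 and 37.2 CPM, and in APOE3 microbead 81.5, 83.5 and 55.3 CPM. Every microbead library lay above every sham library. The log2 fold change was 1.66 ± 0.35 (SE), a 3.17-fold rise, with an adjusted p of 0.00348 in edgeR. These levels rest on 142 reads in the microbead and 59 in the sham libraries, of which 97.5% over all groups fell on the protein-coding transcript Rab32-201, and none of the gene's 31-base stretches occurs in another gene.

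Rab7b, a Rab of late endosomes that is known to lower Toll-like receptor signalling in macrophages by sending the receptors to lysosomes, was nearly undetected in APOE3 sham. The gene (ENSMUSG00000052688.12) lies at chr1:131688695-131715439 on the plus strand of GRCm38. It had 0, 0, 0 and 7 reads in the 4 sham libraries, or 0, 0, 0 and 8.40 CPM, and 29.4, 24.5 and 23.2 CPM in the 3 microbead libraries. The groups did not overlap. The log2 fold change was 3.19 ± 0.83 (adjusted p = 0.0189 in edgeR). The ratio of the summed normalised reads, 48 against 7, was 8.93, with an exact 95% interval of 4.02 to 23.4 that covers counting error only. Rab7b passed the filter on low counts, which asked for about 16.1 CPM in enough libraries, through the 3 APOE3 microbead libraries and 1 APOE4 sham library, so it was tested only because it was high in the group where it rose. Without APOE3 sham 4, the only sham library of that genotype with a read, the fitted log2 fold change was 6.89.

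Rab6b is the form of Rab6 known from neurons, where it drives retrograde transport towards and through the Golgi, and Rab6a is the form found in most cells. The Rab6b gene (ENSMUSG00000032549.7) lies at chr9:103111787-103185276 on the plus strand of GRCm38, and Rab6a (ENSMUSG00000030704.14) at chr7:100607410-100641268 on the plus strand. Rab6b stood at 22.3, 14.1, 42.7 and 36.0 CPM in APOE3 sham and at 6.79, 4.45 and 12.5 CPM in APOE3 microbead. All 3 microbead libraries lay below all 4 sham libraries, and the log2 fold change was -1.90 ± 0.52 (adjusted p = 0.0281 in edgeR). Rab6a stood at 0, 3.51, 4.06 and 13.2 CPM in APOE3 sham and at 22.6, 15.6 and 21.4 CPM in APOE3 microbead. These groups did not overlap either, but the log2 fold change of 1.74 ± 0.65 did not pass (adjusted p = 0.140).

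Because the estimates of these paralogs moved in opposite directions, their coding sequences were set side by side. The coding sequences of Rab6a-201 and Rab6b-201 are 624 bases each and are 78.4% identical base by base, and their longest identical run is 14 bases. Their first coding exons, from the start codon, and their last coding exons are printed 5′ to 3′ from the GENCODE M21 transcripts on GRCm38, with the bases that differ in capitals, 11 of 70 in the first pair and 12 of 62 in the second.
Rab6a first coding exon (chr7:100608224-100608293, plus strand): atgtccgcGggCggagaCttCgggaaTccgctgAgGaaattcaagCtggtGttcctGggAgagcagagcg
Rab6b first coding exon (chr9:103112157-103112226, plus strand): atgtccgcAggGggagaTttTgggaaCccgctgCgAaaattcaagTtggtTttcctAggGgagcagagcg
Rab6a last coding exon (chr7:100639255-100639316, plus strand): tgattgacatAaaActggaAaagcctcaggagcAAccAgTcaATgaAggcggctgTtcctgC
Rab6b last coding exon (chr9:103181182-103181243, plus strand): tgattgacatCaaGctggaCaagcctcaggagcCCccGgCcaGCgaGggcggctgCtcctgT
The differing bases are spread along both exons. Of the 31-base stretches of Rab6b transcripts 0.24% occur in another gene, and all of its reads fell on Rab6b-201. For Rab6a the share was 21.3%, most of it with Mrpl48, a gene on the opposite strand that it overlaps, and reads of the overlap cannot be assigned to either gene without strand. The Rab6a values are uncertain for that reason.

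**Figure D2:**
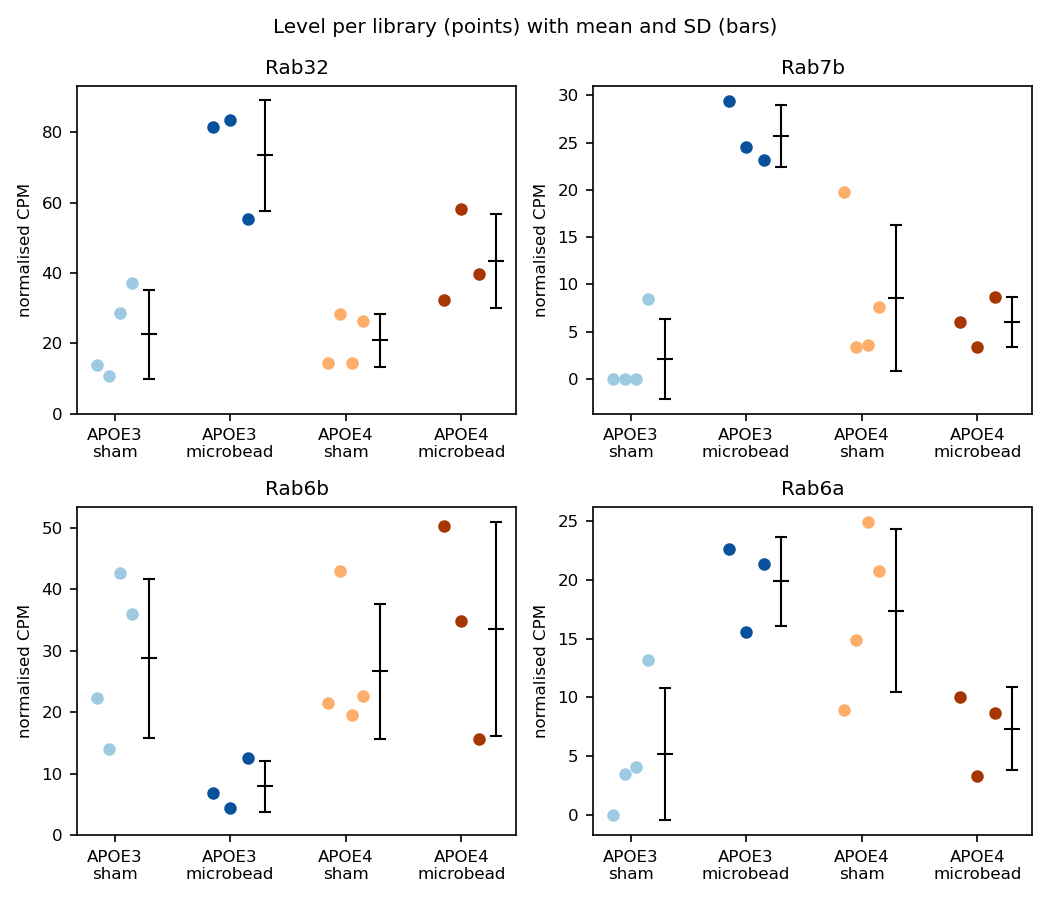
Normalised CPM of Rab32, Rab7b, Rab6b and Rab6a in each library (points), with group mean and SD beside the points (bars; n = 4 sham and 3 microbead per genotype). In APOE3, Rab32, Rab7b and Rab6a lie higher and Rab6b lower in all 3 microbead libraries than in all 4 sham libraries; in APOE4 only Rab32 of these 4 separates.

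Groups failed to overlap in APOE3 for 3 Rab genes on the higher side (Rab32, Rab7b and Rab6a), against 7.63% of all genes. On the lower side they failed to overlap for Rab6b, against 5.52%. Rab6a passed the filter on low counts through 2 APOE3 microbead, 1 APOE3 sham and 2 APOE4 sham libraries. It was thus tested in part because it was high in APOE3 microbead. By compartment, 2 of the 7 genes tested from late endosomes and lysosomes rose, where 3.54% of all genes tested did, none fell, and 6 of the 7 estimates were above 0, with a median of 0.67. One of these 2, Rab7b, was tested only because it was high in the microbead group, as given above. No gene of early and recycling endosomes was called (median -0.06 over 13). In the endoplasmic reticulum and Golgi set Rab6b was called and the median over 7 was 0.25. Neither of the 2 secretory genes tested nor Rab40c, the only gene of the last set tested, was called.

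Within the late endosomal set, Rab7 stood at 89.2 ± 19.4 CPM in APOE3 sham and 120 ± 19.4 in APOE3 microbead (log2 fold change 0.44 ± 0.23, adjusted p = 0.410 in edgeR). Rab29, a lysosomal and Golgi Rab that recruits LRRK2, gave 0.24 ± 0.52 (adjusted p = 0.923), and Rab34 gave -0.06 ± 0.34 (adjusted p = 0.979). Among the endosomal genes, Rab20, which acts in phagosome maturation, was not called: it stood at 24.0, 10.5, 34.6 and 21.6 CPM in sham and at 31.7, 32.3 and 53.5 CPM in microbead (log2 fold change 0.79 ± 0.38, adjusted p = 0.323), and the groups overlap. Rab11a gave -0.33 ± 0.26, Rab14 -0.06 ± 0.22 and Rab10, another LRRK2 substrate, -0.03 ± 0.44, none of them called. The 95% interval of the Rab14 difference ran from -0.49 to 0.38 on the log2 scale.

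In the transport genes of the endoplasmic reticulum and Golgi, Rab1b gave 0.50 ± 0.28 and Rab2b, which acts at the Golgi and in autophagy, -1.15 ± 0.59 (adjusted p = 0.443 and 0.374 in edgeR). Rab27a, which docks secretory lysosomes at the plasma membrane, gave 0.16 ± 0.34 (adjusted p = 0.918). Rab3a, the Rab of synaptic vesicles, had 51 reads over all libraries and was not tested. Rab28, a ciliary Rab, had 82 reads and was not tested either.

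**Figure D3:**
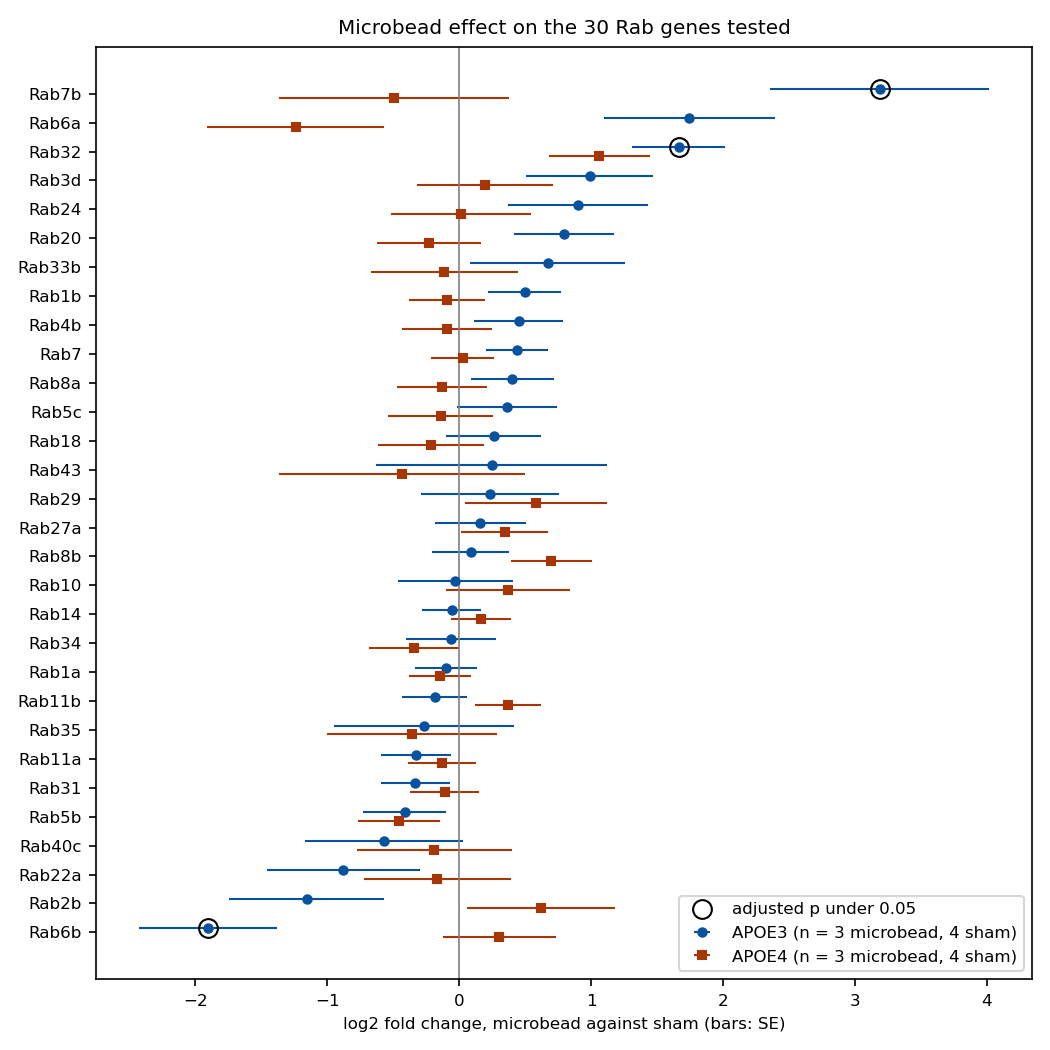
Log2 fold change of microbead against sham (bars: SE) for the 30 Rab genes tested, in APOE3 (circles) and APOE4 (squares), ordered by the APOE3 value; black rings mark an adjusted p under 0.05. The APOE3 estimates run from -1.90 (Rab6b) to 3.19 (Rab7b), and those of APOE4 from -1.24 (Rab6a) to 1.06 (Rab32).

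Markers of blood monocytes moved with the APOE3 microbead group. The 14 markers summed to 44.7 to 87.9 CPM in APOE3 sham, where S100a4 and S100a6 were at 0 in all 4 libraries, and to 1625, 864 and 308 CPM in the 3 APOE3 microbead libraries, where all 14 had reads. Fn1 stood at 1319, 335 and 237 CPM in these 3 libraries, against 13.7 to 36.01 CPM in APOE3 sham. Ccr2, a defining receptor of the cells, stood at 83.7, 116 and 16.0 CPM, against 4.80 to 18.9 CPM in APOE3 sham, so the third library lay within the sham range for that gene. Ly6c2, the gene of the antigen used to remove such cells, had 1, 2 and 1 reads there. APOE3 microbead 3 had the lowest marker sum of the 3, at 308 CPM, which was above that of every sham library. Fn1 alone gave 237 of these 308 CPM. It also gave 1319 of the 1625 CPM in APOE3 microbead 1 and 335 of the 864 CPM in APOE3 microbead 2. The excess over sham thus rests mostly on Fn1 in APOE3 microbead 1 and 3. In APOE3 microbead 3, 11 of the 14 markers had reads, and Plac8 had 0. In APOE3 microbead 3, Rab32 stood at 55.3 CPM and Rab7b at 23.2 CPM, above all 4 APOE3 sham libraries. Rab6b stood there at 12.5 CPM, below them. With APOE3 microbead 1 and 2 both left out, the log2 fold changes against sham were 1.25 ± 0.52 for Rab32, 3.08 ± 1.23 for Rab7b and -1.19 ± 0.72 for Rab6b, none of them called (adjusted p = 0.468, 0.427 and 0.723), with 1 microbead library assumed to vary like the other groups. The part of these cells in the 3 calls was not tested beyond these values.

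Markers of other cells were summed in the same way. The 10 markers of retinal neurons, cells in which Rab6b is known to be abundant, ran from 54.0 to 91.5 CPM in APOE3 sham and from 41.2 to 95.04 CPM in APOE3 microbead, where Tfap2b was at 0. The 12 rod photoreceptor markers ran from 395 to 2425 CPM in APOE3 sham and from 315 to 943 CPM in APOE3 microbead, all detected in both. The ranges overlap for both lists. The 8 markers of Müller glia and astrocytes ran from 169 to 203 CPM in APOE3 sham and from 226 to 275 CPM in APOE3 microbead. Gfap and Dkk3 were at 0 in APOE3 microbead, and single APOE3 libraries had reads for 3 to 6 of the 8. The 9 lymphocyte markers ran from 295 to 322 CPM in APOE3 sham and from 124 to 149 CPM in APOE3 microbead, with Trac and Nkg7 at 0 in both. The highest lymphocyte sum of the 14 libraries, 340 CPM in APOE4 sham 3, came with reads on 3 of the 9 markers. A few genes can thus carry this sum, and it need not follow the number of lymphocytes. The part of these 4 lists in the Rab calls was not tested.

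**Figure D4:**
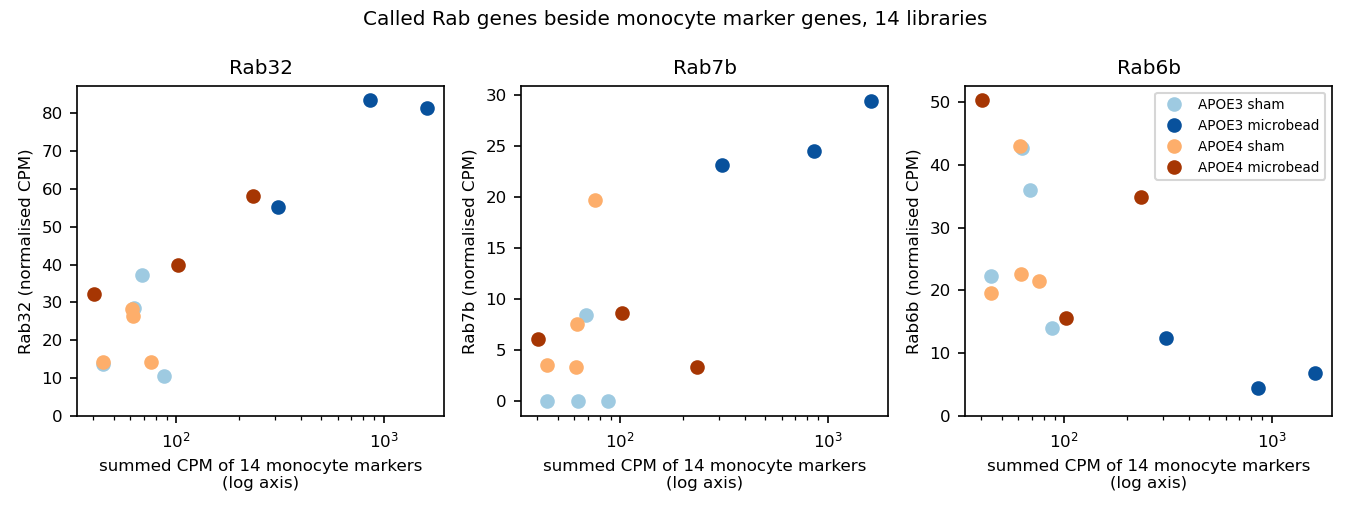
Normalised CPM of Rab32, Rab7b and Rab6b in each of the 14 libraries against the summed CPM of 14 monocyte markers (log axis), coloured by group. The APOE3 microbead libraries stand at marker sums of 308 to 1625 CPM, and the sham libraries of both genotypes at 44.5 to 87.9 CPM. Fn1 alone gave 1319 CPM of the highest sum and 237 CPM of the lowest sum of the APOE3 microbead libraries.

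In APOE4 microglia, microbeads changed none of the 30 Rab genes at the threshold in edgeR, where 0.197% of all genes were called. DESeq2 gave an adjusted p for 18 of the 30 and called none of these. In edgeR 2 of the 30 had an unadjusted p under 0.05 (6.5% of all genes did). The median log2 fold change was -0.11. Rab32 had the smallest p: it stood at 14.4, 28.2, 14.2 and 26.4 CPM in APOE4 sham and at 32.2, 58.2 and 39.8 CPM in APOE4 microbead, so the groups did not overlap (log2 fold change 1.06 ± 0.38, adjusted p = 0.459, unadjusted p = 0.0098). In APOE4 microbead 1 the monocyte marker sum was 40.2 CPM, below all 8 sham libraries. Rab32 in this library stood at 32.2 CPM, above all 4 APOE4 sham libraries but below APOE3 sham 4. The marker sums of APOE4 microbead 2 and 3 were 236 and 102 CPM, and Fn1 gave 140 CPM of the first.

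The other Rab genes called in APOE3 had smaller estimates here. Rab7b stood at 19.7, 3.31, 3.56 and 7.55 CPM in APOE4 sham and at 6.04, 3.32 and 8.65 CPM in APOE4 microbead (log2 fold change -0.49 ± 0.87). Rab6b stood at 21.5, 43.1, 19.6 and 22.6 CPM in APOE4 sham and at 50.3, 34.9 and 15.6 CPM in APOE4 microbead (log2 fold change 0.31 ± 0.43). The groups overlap for both genes. Rab8b, which serves transport to the plasma membrane, gave 0.70 ± 0.31 (adjusted p = 0.691), and Rab11b, the close relative of Rab11a, 0.37 ± 0.25 (adjusted p = 0.897). Rab11b and Rab32 were the only Rab genes whose APOE4 groups did not overlap on the higher side, against 4.97% of all genes, and there was none on the lower side, against 4.14%.

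Whether the response to microbeads differed between genotypes was asked with the interaction term. It called none of the 30 Rab genes in edgeR, where 0.092% of all genes were called. DESeq2 gave an adjusted p for 4 of them and called none of these. Unadjusted p-values under 0.05 in edgeR were found for 4 of the 30 (8.17% of all genes). The genes under that level were Rab6b at 2.21 ± 0.68 (log2, APOE4 response minus APOE3 response), Rab6a at -2.98 ± 0.93, Rab7b at -3.68 ± 1.22 and Rab2b at 1.77 ± 0.81, with adjusted p of 0.258, 0.258, 0.293 and 0.567. Rab2b passed the filter on low counts through 2 APOE3 sham and 2 APOE4 microbead libraries alone. Rab7b passed it through 3 APOE3 microbead and 1 APOE4 sham library. Both were thus tested only because they were high in the groups that give these signs. Rab6a passed mainly so too, through 2 APOE4 sham, 2 APOE3 microbead and 1 APOE3 sham library. The interaction of Rab32 was -0.60 ± 0.53, with a 95% interval of -1.64 to 0.43. The call of Rab32, Rab7b and Rab6b in APOE3 and not in APOE4 is therefore not shown to be a difference between genotypes.

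In sham retinas, APOE4 against APOE3 called none of the 30 Rab genes in edgeR or DESeq2, where 0.0131% of all genes were called in edgeR, and 1 of the 30 had an unadjusted p under 0.05 (4.4% of all genes). That gene was Rab6a, at 5.20 ± 5.63 CPM in APOE3 sham and 17.4 ± 6.95 CPM in APOE4 sham (log2 fold change 1.57 ± 0.62, adjusted p = 0.962). Rab6a passed the filter on low counts mainly where it was high, through 2 APOE4 sham and 2 APOE3 microbead libraries. Only 1 APOE3 sham library counted towards it. Rab11b was lower in APOE4 sham without overlap, at 56.7 ± 5.08 against 75.5 ± 11.8 CPM, which 1.38% of all genes were too (log2 fold change -0.41 ± 0.23, adjusted p = 0.962). The sequence that Rab11b shares with other genes, as given above, limits this value too. Rab8b gave -0.57 ± 0.29 and Rab7b 1.62 ± 0.88. Rab32 differed by -0.15 ± 0.38.

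In microbead retinas, APOE4 against APOE3 called none of the 30 in edgeR, where 0.579% of all genes were called, and 3 of the 30 had an unadjusted p under 0.05 (9.74% of all genes). DESeq2 gave an adjusted p for 10 of the 30 and called none of these. Rab6b was higher in all 3 APOE4 than in all 3 APOE3 libraries, at 33.6 ± 17.4 against 7.91 ± 4.13 CPM (log2 fold change 2.11 ± 0.55, adjusted p = 0.0789). It passed the threshold when APOE3 microbead 3 was left out or when no filter on low counts was used. Rab7b was lower in APOE4 without overlap, at 6.0 ± 2.66 against 25.7 ± 3.29 CPM (log2 fold change -2.06 ± 0.84, adjusted p = 0.380). Rab6a was lower too without overlap (-1.41 ± 0.70, adjusted p = 0.514), and Rab32 gave -0.75 ± 0.36 (adjusted p = 0.508) with overlap. Rab7b was tested only because it was high in APOE3 microbead, as given above. Rab6a passed the filter on low counts through 2 APOE3 microbead and 0 APOE4 microbead libraries, beside sham libraries. It was thus tested in part because it was high in APOE3 microbead. The shares of all genes without overlap were 7.19% on the higher and 7.28% on the lower side. These comparisons share libraries with the microbead comparisons and are not separate evidence.

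The genes that act on Rab proteins were followed beside them. Of 124 listed GEFs, GAPs, effectors, chaperones, kinases and phosphatases, 84 were tested, and 1 was called in any of the 5 comparisons. This was Tbc1d10a, a GAP, which rose in APOE3 with microbeads, where 5.15% of all genes tested were called (log2 fold change 1.12 ± 0.32, adjusted p = 0.0350 in edgeR). It stood at 20.6, 28.1, 24.4 and 30.01 CPM in APOE3 sham and at 22.6, 70.2 and 73.1 CPM in APOE3 microbead, so 1 microbead library lay within the sham range. APOE3 sham was the lowest group, as Tbc1d10a stood at 45.5 ± 8.39 CPM in APOE4 sham and 53.8 ± 5.31 in APOE4 microbead. In sham, APOE4 against APOE3 gave 0.80 ± 0.31 for this gene (adjusted p = 0.962 in edgeR). Among GAPs in APOE3 with microbeads, Tbc1d8 gave 1.01 ± 0.31 without overlap (adjusted p = 0.0593), and 1 of 20 was called. APOE3 sham was the lowest group for Tbc1d8 too, at 20.7 ± 5.91 CPM against 45.2 ± 9.09 in APOE4 sham. That difference gave 1.12 ± 0.30 (adjusted p = 0.560 in edgeR).

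Among the 27 GEFs tested in APOE3 none was called, against 5.15% of all genes, 17 of the estimates were below 0 and the median was -0.24. Rin2, a GEF of the Rab5 family, gave -0.69 ± 0.21 (adjusted p = 0.0502), and Dennd6a -1.07 ± 0.38 (adjusted p = 0.112). Rin2 stood at 139 ± 21.2 CPM in APOE3 sham and 85.2 ± 13.2 CPM in APOE3 microbead. Among the 31 effectors and tethers none was called, 23 estimates were below 0 and the median was -0.20. Appl2, an early endosomal adaptor of Rab5, gave -0.95 ± 0.32 (adjusted p = 0.0890). None of the 4 chaperone and prenylation genes tested was called. Nor was either of the 2 tested genes of Rab phosphorylation, the kinase Lrrk1 (0.31 ± 0.28) and the phosphatase Ppm1h (0.27 ± 0.24). In APOE4 the medians were 0.04 for GEFs, 0.07 for GAPs and 0.06 for effectors, and none was called, against 0.197% of all genes.

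**Figure D5:**
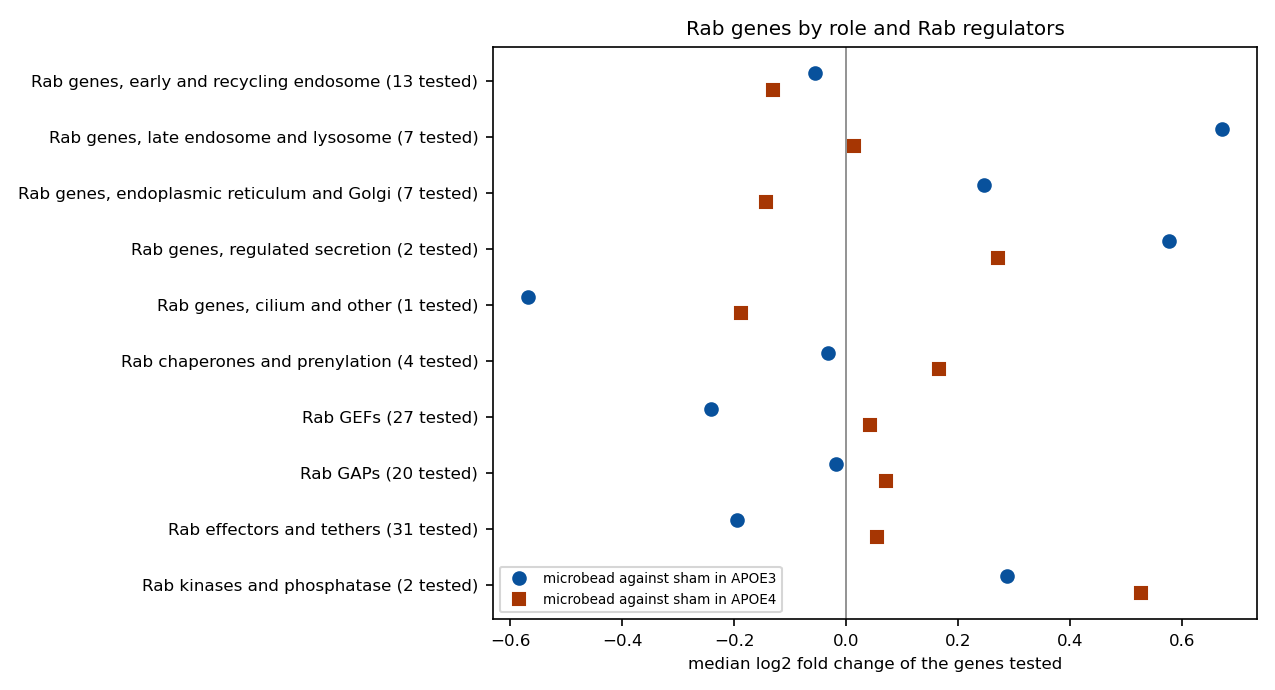
Median log2 fold change of microbead against sham for the Rab genes of each compartment and for each list of Rab regulators, in APOE3 (circles) and APOE4 (squares), with the number of genes tested in brackets. In APOE3 the late endosomal Rab genes have a median of 0.67, and the GEFs and effectors medians of -0.24 and -0.20.

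Promoters were described from the RefSeq table for GRCm38.p6, in which 48 of the 59 Rab genes matched. In the 250 bases before the start, searched on both strands, the GC box GGGCGG occurred in 36 of the 48, or 75.0%, against 32.7% of all 32851 promoters. The E-box CACGTG, the site of lysosome regulators such as TFEB, occurred in 5, or 10.4%, against 6.02%, and the ETS core GAGGAA in 8, or 16.7%, against 23.3%. A Rab gene was counted if any of its promoters held the letters, while the share over all was counted per promoter. That share covers every promoter listed and not only those of genes tested here, so the shares are not strictly alike. Among the genes called in APOE3, Rab6b holds a GC box, Rab32 holds 2 ETS cores but no GC box, and Rab7b was not matched. The Rab32 window is shown because that gene held its call when any 1 library was left out. The 192 bases upstream of the annotated transcript (GRCm38.p6, chr10:10558266-10558457, minus strand, printed 5′ to 3′) are 51.6% G or C, and the ETS core that lies 222 bases before the RefSeq start, read here on the other strand, is in capitals. The other ETS core lies 43 bases before the RefSeq start, inside the annotated transcript, and is not printed.
Rab32 promoter: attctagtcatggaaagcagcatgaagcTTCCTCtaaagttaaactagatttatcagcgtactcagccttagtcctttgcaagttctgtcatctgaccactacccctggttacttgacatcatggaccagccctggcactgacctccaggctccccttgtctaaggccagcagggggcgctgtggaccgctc
A match of letters is a description of the sequence, and no binding was measured here.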

How the data were processed

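Retinal microglia of 14 libraries were analysed. Per the submitters' processing notes, Salmon 1.4.0, mm10, R 4.0.3 and DESeq2 1.30.1 were used. The authors deposited estimated counts per transcript for each library and, per the file headers, TPM per transcript, and a series table of TPM per gene. Of 116945 transcripts 115945 were assigned to genes with GENCODE M21, and counts were summed per gene and rounded. As a check of labels, TPM summed per gene was set against the series table: 99.2% to 99.4% of genes lay within 1% of the column of the same library, and at most 2.11% within 1% of a column of another.

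Genes were filtered by group with edgeR 4.0.16 in R 4.3.3 (minimum count 10, minimum total 15), leaving 7605. The test was the two-sided quasi-likelihood test of edgeR (robust, TMM), fitted once to all libraries with a mean for each of the 4 groups. Adjusted p-values are Benjamini-Hochberg over all genes tested. The scripts were tested on data simulated for microbead against sham in APOE3. There the test called 1.49% of 1.5-fold, 14.9% of 2-fold and 72.7% of 4-fold changes. A gene that was not called may therefore still have changed. SEs come from the F statistic. Strand and the roles of the tools are not given in the sources used here.

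The Rab genes and lists were chosen with earlier results of these data known. Named genes are the Rab genes called, the 4 with the smallest p per comparison, the 2 highest in TPM per compartment, and Rab7b, Rab10, Rab20, Rab27a, Rab29, Rab32 and Rab38, and for regulators those called and the 2 with the smallest p per list, from which a few are given. Alternatives used DESeq2 1.42.0, limma 3.58.1 on log2(TPM + 1), library totals, no filter, only the libraries compared, a replicate block and left-out libraries. The level of protein-coding transcripts alone was chosen after seeing the data.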

Additional observations from a re-analysis of the deposited data

Results flagged for a closer look

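In groups of 4 libraries, the highest or lowest value was compared with the rest by its gap as a share of the range, against Dixon's 95% critical value. Of 60 groups of sham libraries tested over the 30 Rab genes, 5 passed, where chance gives about 1 in 20. Rab7b in APOE3 sham 4 stood at 8.40 CPM, with the other 3 libraries at 0, and this library sets the size of the Rab7b fold change. With 3 values tied at 0 the gap is the whole range whatever the remaining value. This pass was thus fixed in advance, though it is counted among the 5. Rab6b in APOE4 sham 2 stood at 43.1 CPM, with the others at 19.6 to 22.6 CPM. Rab5c, a Rab of early endosomes, stood at 44.7 CPM in the same library, with the others at 17.9 to 21.3 CPM. Rab34 in APOE4 sham 3 stood at 83.6 CPM, with the others at 126 to 135 CPM. Rab11b in APOE4 sham 4 stood at 49.1 CPM, with the others at 58.7 to 59.6 CPM.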

How the results depend on the processing

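The 3 Rab genes called in APOE3 were 3 in DESeq2 and without the filter, 2 with library totals, with only the libraries compared and with the replicate block, 1 (Rab7b) with limma on deposited TPM, 0 without both APOE3 microbead 1 and 2, and 1 to 3 with any 1 library left out. The count was 1 (Rab32) without APOE3 microbead 1 and without APOE3 microbead 2, and without APOE3 sham 4 Rab6a was called and Rab6b was not. Rab32 kept its call in 19 of 21 alternatives, with adjusted p of at most 0.0288 with 1 library left out, but 0.50 with limma on TPM (log2 fold change 1.53). Rab6b lost its call in 8 of 21, among them without APOE3 sham 3 or 4 or APOE3 microbead 1 or 2 (adjusted p = 0.0838, 0.0751, 0.0832 and 0.202), with limma on TPM (0.766), with only the libraries compared (0.0620) and with the replicate block (0.0939). Rab7b lost its call in 6 of 21, without APOE3 sham 1 or 2 or APOE3 microbead 1 or 2 (adjusted p = 0.0571, 0.0597, 0.0605 and 0.0728) and with library totals (0.0559). Within microbead retinas the count rose from 0 to 1 (Rab6b) without the filter and, over left-out libraries, ran from 0 to 1. The counts of 0 in the other 3 comparisons were 0 in every alternative run, though DESeq2 gave an adjusted p for only 18 of the 30 in APOE4 and 4 for the interaction, and no call changed sign. The correlations of same-numbered libraries ran from -0.144 to 0.0985 over 13 pairs, none over 0.1. APOE3 microbead 2 and APOE3 sham 4, which differ in number, gave 0.255. This measure rests on deviations within groups of 3 or 4 libraries and cannot exclude that retinas were paired by animal. With library totals the median of all genes shifted to -0.23 in APOE4 and 0.16 between genotypes in sham. Of the 10 Rab genes highest in TPM, 8 were among the 10 highest in CPM and 8 by protein-coding transcripts alone. Depth limits what was tested: each library held 630 to 1351 reads on all Rab genes, and the 29 genes below the filter had at most 107 reads each in all. Without the filter 57 of the 59 were tested.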
